A study of Mus musculus with 12 samples.

Results

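Gene expression in the small vessels of the mouse cerebellum was compared between mice without Notch3 and their littermates. The comparison took 6 of the 12 arrays in the series: 3 arrays of cerebellar microvascular fragments from Notch3 knockout mice and 3 from control mice, chosen by the group named in the sample titles. The knockout mice carried the Notch3 knockout genotype, and the controls were wildtype littermates. All of these mice were C57BL/6, 2 months old and untreated as far as the labels say. Each of the 6 mice gave cerebellar and cerebral fragments, which were hybridised separately; the replicate numbers were taken to name the mice. The labels do not state how the knockout allele was made, where its deletion lies or how the fragments were isolated. Total RNA (about 100 ng per sample) was amplified and hybridised to the Mouse Genome 430 2.0 array, and each value below is a log2 expression value as deposited. The difference for a gene is the mean of the 3 knockout arrays minus that of the 3 control arrays.

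Notch3 is a cell-surface receptor found mainly on mural cells, the smooth muscle cells and pericytes that wrap the endothelial tube. When a Jagged or Delta ligand on a neighbouring cell binds it, its intracellular part is cut free, enters the nucleus and activates transcription together with the DNA-binding protein RBPJ, switching on genes of the Hey and Hes families. In brain arteries the receptor is known for its part in the maturation and maintenance of smooth muscle, and mutations of human NOTCH3 cause the small-vessel disease CADASIL.

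Notch3 itself was read by 2 probe sets, sets of short DNA probes that report 1 transcript together. Probe set 1421965_s_at read 11.73, 12.02 and 11.78 in the control arrays and 3.15, 3.59 and 2.48 in the knockout arrays. Probe set 1421964_at read 8.19, 8.21 and 8.0 in the controls and 3.76, 2.49 and 2.21 in the knockouts. All knockout values lay close to the median of all values on the arrays (3.27), so the genotype labels held in every array. Notch3 fell by 8.77 (SE 0.29, limma adjusted p = 7.70e-08), which is at least 354-fold. A fold is written as "at least" where a value at or below that median was raised to it first, since values near it have no reliable order.

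The arrays were alike in overall distribution, with medians of 3.25 to 3.30. Pearson correlations were 0.993 to 0.996 within a genotype and 0.986 to 0.990 between genotypes. The X-inactivation transcript Xist was at or above 12.9 in 4 of the 6 cerebellar arrays and at or below 2.87 in control mouse 3 and knockout mouse 2, so both groups mixed mice with and without it. Precision was limited by the 3 arrays per group, and the median standard error of a log2 difference was 0.10.

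Of 11716 genes tested, 495 passed the test (4.22%; adjusted p under 0.05 in limma, a linear model with a variance estimate shared across genes). Of these, 371 were lower (3.17% of all tested) and 124 higher (1.06%) in the knockouts, so 74.9% of the changed genes fell. More than 2-fold changes numbered 136 lower and 31 higher, and more than 4-fold changes 35 lower and 11 higher. The median difference over all tested genes was 0.0083. The 3 knockout values lay entirely below the 3 control values for 11.7% of all tested genes and entirely above them for 10.4%, and the 495 genes that passed were all among these. When 1 array was left out at a time, 302 genes passed without knockout mouse 3 and 327 without control mouse 2. The spread was estimated from all 12 arrays, the cerebral ones included, taken as independent. With only the 6 cerebellar arrays in the fit 337 genes passed, 296 of them among the 495.

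**Figure D1:**
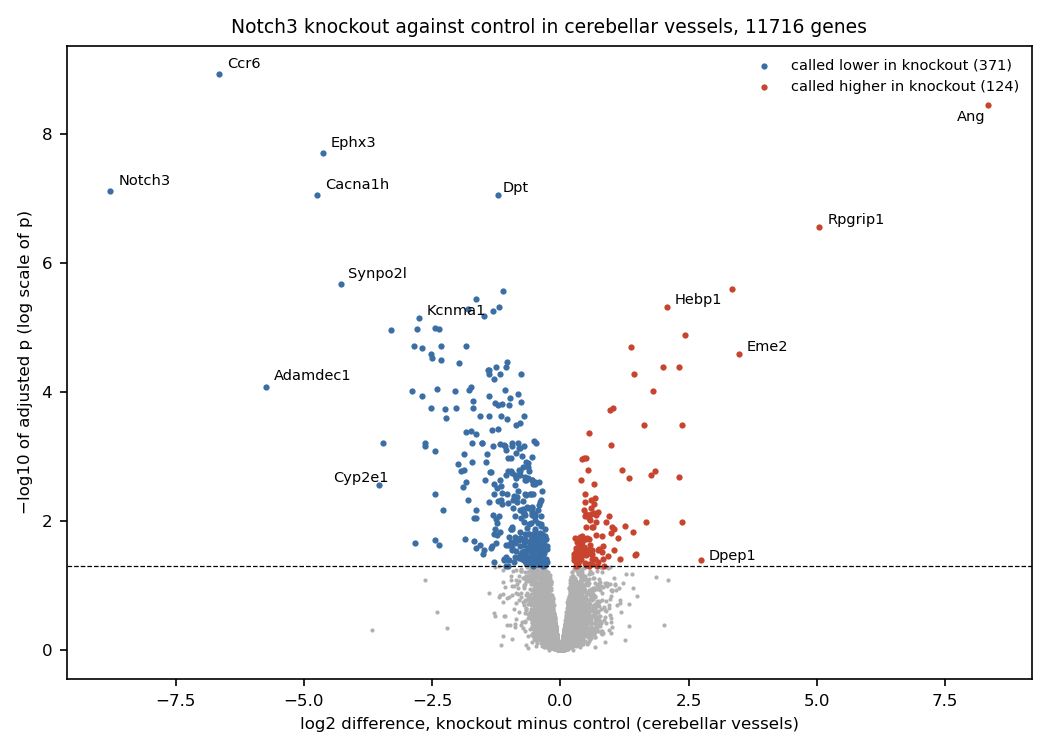
Each point is 1 of 11716 genes, with the log2 difference between knockout and control cerebellar vessels on the horizontal axis and the −log10 of the limma adjusted p on the vertical axis. The dashed line is the threshold of 0.05; the 371 lower genes (blue) outnumber the 124 higher ones (red), and Notch3, Ccr6, Ang and Rpgrip1 lie farthest out.

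The contractile apparatus of smooth muscle was lower in the knockouts. Its gene list, like the others below, was chosen with earlier results of these data known. This list holds actin, myosin, tropomyosin and the proteins that control them; 14 of its 22 genes fell, against 3.17% of all tested genes, and none rose, with a median difference of −0.55. Smooth muscle actin Acta2 read 14.78, 14.82 and 14.89 in controls against 14.49, 14.38 and 14.45 in knockouts. The myosin heavy chain of smooth muscle, Myh11, read 12.60, 13.02 and 13.01 against 11.16, 11.33 and 10.80. The actin-binding protein transgelin, Tagln, read 13.60, 13.89 and 14.07 against 13.05, 12.93 and 12.52. In all 3 genes the groups were separate, but the gap was narrow for Acta2 (1.31-fold, adjusted p = 0.00505) and wide for Myh11 (3.43-fold, adjusted p = 9.16e-05).

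The regulatory light chain Myl9 fell by 0.97 (SE 0.12) and the tropomyosin Tpm2 by 1.21 (SE 0.13). Ppp1r12b, a targeting subunit of myosin phosphatase, read 10.05, 10.46 and 10.48 in controls and 8.62, 8.73 and 8.55 in knockouts, a 3.25-fold fall. Its relative Ppp1r12a fell by only 0.52, and Mylk, the kinase that starts contraction by phosphorylating the light chain, by 0.64. Calponin, Cnn1, had the largest difference of the list, with 7.05, 7.58 and 8.53 in controls and 4.87, 6.35 and 4.59 in knockouts (5.45-fold). Cnn1 also spread the most within a genotype, over more than 1 log2 unit in each. Genes of the same filament system did not all pass. Vcl differed by 0.01 and Smtn by −0.12. Cald1, which encodes the actin-binding protein caldesmon, differed by −0.18 on its brightest probe set, which stands for the gene in the counts, but its probe sets 1424768_at and 1424770_at fell by 0.80 and 0.62 (adjusted p over all probe sets 0.00455 and 0.00462).

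Some of these calls were lost when 1 cerebellar array of either genotype was left out. Cnn1 was lost without control mouse 2 or 3 or knockout mouse 1 or 3 (adjusted p 0.0564 to 0.0841). Ppp1r12a was lost in every leave-one-out run but that without knockout mouse 2 (0.0528 to 0.0930), and Tpm1 in every run but that without control mouse 1 (0.0712 to 0.112). Lmod1 reached 0.0508 without control mouse 3, Actn1 0.0504 without control mouse 2, and Ppp1r14a 0.0675 without knockout mouse 3. With only the 6 cerebellar arrays in the fit, 9 contractile genes passed. The vessel fragments are mixtures, so fewer mural cells and less RNA per mural cell cannot be told apart in any of the mural gene groups described here.

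**Figure D2:**
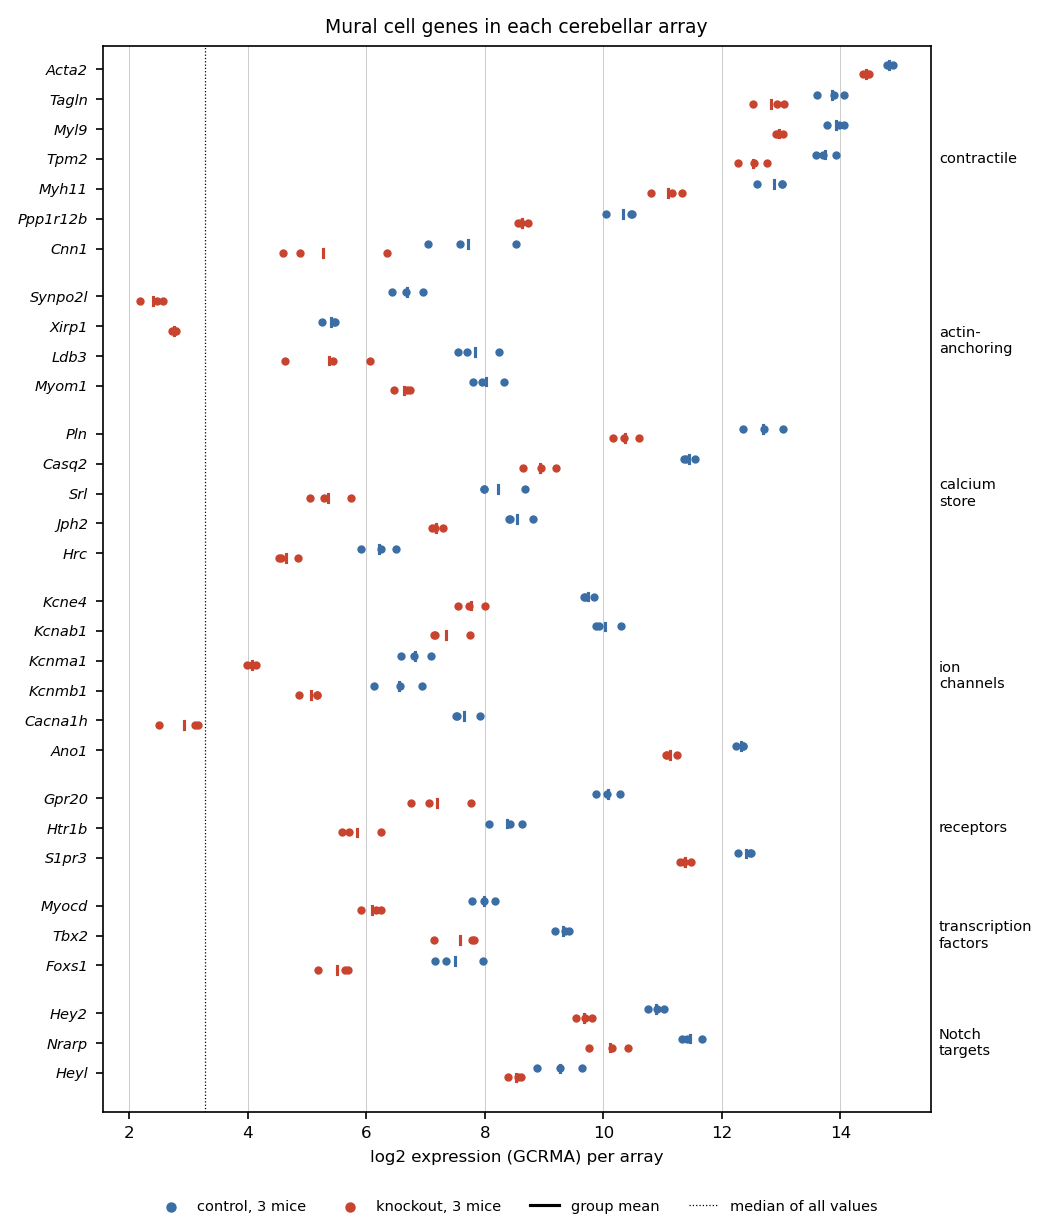
Each row is a gene; the horizontal axis is its log2 expression on each cerebellar array, with 3 control mice in blue, 3 knockout mice in red, a bar at each group mean and a dotted line at the median of all values. In every row the 3 knockout values lie below the 3 control values, with a narrow gap for Acta2 and Heyl and a wide one for Synpo2l and Cacna1h.

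Proteins that anchor actin filaments to Z-disc-like dense bodies were lower too. Of 21 tested genes 8 fell and 1 rose, against 3.17% and 1.06% of all tested genes, and the median difference was −0.39. Synpo2l, a synaptopodin-related actin-binding protein, read 6.67, 6.43 and 6.96 in controls and 2.18, 2.46 and 2.57 in knockouts. Xirp1, which binds actin at muscle attachments, read 5.46, 5.25 and 5.47 against 2.72, 2.79 and 2.78. In both genes the knockout arrays were at the background of the array, which makes the falls at least 10.7-fold and at least 4.37-fold. Synpo2l has 3 other probe sets, all at background in both genotypes. It was below the median of all values in every knockout array and entered the test through the control arrays of both regions. Its place in the count of 8 thus depends on the genotype in which it was high.

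The Z-disc protein Ldb3 read 7.55, 7.69 and 8.24 in controls and 5.44, 6.07 and 4.63 in knockouts (5.47-fold, adjusted p = 0.00374). Myomesin, Myom1, which crosslinks myosin in striated muscle, read 7.96, 7.81 and 8.32 against 6.70, 6.74 and 6.48 (2.62-fold). Synpo2 fell by 1.33, but its probe sets 1441206_at and 1452879_at differed by −0.65 and −0.50 and did not pass. Pdlim3, Nexn and Filip1l fell by 1.13, 0.94 and 0.71. The exception was the LIM-domain protein Fhl2, which read 6.11, 6.23 and 6.02 in controls and rose to 7.33, 6.87 and 7.14 (1.99-fold, adjusted p = 0.000656). Where only genes brighter than the 75th percentile of all values (8.45) in at least 3 arrays were kept, 4 anchoring genes were called.

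Many smooth muscle genes are driven by serum response factor and its partner myocardin at a sequence called the CArG box, and Notch signalling acts through RBPJ, for which the letters GTGGGAA were searched. Both motifs and the E box CACGTG, which Hey proteins can bind, were looked for on both strands of RefSeq promoters (GRCm38.p6), each 250 bases before to 50 after a gene start. A promoter was found for 269 of the 371 lower genes, 101 of the 124 higher genes and 9498 of the tested genes. The CArG box occurred in 3.03% of the promoters of lower genes, 1.40% of those of higher genes, 1.30% of those of all tested genes and 1.63% of all promoters in the table. For GTGGGAA the shares were 6.34%, 6.99%, 6.05% and 6.38%, and for CACGTG 4.41%, 11.2%, 9.71% and 7.15%. A match is not a binding site, and no binding was measured. The 250 bases before the start are shown, 5′ to 3′ on the gene's strand, for 3 lower genes with a CArG box and for the Notch target Hey2 with the reverse complement of GTGGGAA. Capitals mark the motif, and no printed motif overlaps another that was searched.
Myl9: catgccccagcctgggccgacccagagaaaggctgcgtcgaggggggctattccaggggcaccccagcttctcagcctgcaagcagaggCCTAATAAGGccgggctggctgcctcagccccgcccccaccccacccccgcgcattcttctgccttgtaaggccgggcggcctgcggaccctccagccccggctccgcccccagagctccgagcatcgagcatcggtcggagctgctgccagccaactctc
Ldb3: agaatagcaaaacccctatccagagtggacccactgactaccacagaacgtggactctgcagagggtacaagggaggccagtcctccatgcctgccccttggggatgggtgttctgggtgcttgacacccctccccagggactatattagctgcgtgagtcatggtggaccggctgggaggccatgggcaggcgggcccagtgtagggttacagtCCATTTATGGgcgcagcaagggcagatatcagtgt
Myom1: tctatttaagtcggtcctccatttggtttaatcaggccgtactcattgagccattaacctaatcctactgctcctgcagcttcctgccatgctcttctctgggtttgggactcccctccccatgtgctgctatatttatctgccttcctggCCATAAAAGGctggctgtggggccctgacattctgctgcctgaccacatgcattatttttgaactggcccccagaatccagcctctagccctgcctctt
Hey2: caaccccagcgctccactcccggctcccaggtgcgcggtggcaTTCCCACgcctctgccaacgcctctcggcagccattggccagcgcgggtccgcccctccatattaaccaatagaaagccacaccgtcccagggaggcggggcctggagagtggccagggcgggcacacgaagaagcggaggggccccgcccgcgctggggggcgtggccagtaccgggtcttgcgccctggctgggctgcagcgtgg
These lie at chr2:156775214-156775463 on the plus strand (Myl9), chr14:34588682-34588931 on the minus strand (Ldb3), chr17:71019307-71019556 on the plus strand (Myom1) and chr10:30842784-30843033 on the minus strand (Hey2). The motif ends 151 bases before the start in Myl9, 25 in Ldb3, 89 in Myom1 and 200 in Hey2.

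Genes of the sarcoplasmic reticulum, the internal calcium store from which contraction is triggered, included some of the largest falls. Of 20 tested genes 6 fell, against 3.17% of all tested genes, and none rose, with a median difference of −0.25. Phospholamban, Pln, the brake on the pump that refills the store, read 12.36, 12.71 and 13.04 in controls and 10.35, 10.60 and 10.17 in knockouts. Calsequestrin, Casq2, which holds calcium inside the store, read 11.37, 11.55 and 11.40 against 8.95, 9.21 and 8.64. Sarcalumenin, Srl, another calcium-binding protein of the store, read 7.98, 7.99 and 8.68 against 5.05, 5.74 and 5.29. These 3 genes fell 5.03-fold, 5.68-fold and 7.25-fold, each with more than 1 log2 unit between the nearest control and knockout arrays.

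Junctophilin, Jph2, which ties the store to the plasma membrane, fell by 1.37, and the histidine-rich calcium-binding protein Hrc by 1.57. Mrvi1 (also Irag1), through which cyclic GMP kinase restrains calcium release, averaged 12.1 in controls (SD 0.08, n = 3) and 10.8 in knockouts (SD 0.08, n = 3), a 2.41-fold fall. All 6 called genes of the store kept their calls when any single array was left out. With the 75th percentile filter 3 genes of the list were called.

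Potassium channels, which set the membrane potential of smooth muscle and oppose constriction, showed 5 of 12 tested genes lower and 1 higher. Of all tested genes 3.17% were lower and 1.06% higher. The median difference of the list was −0.59. The pore of the large-conductance calcium-activated channel, Kcnma1, read 6.58, 6.81 and 7.09 in controls and 3.99, 4.15 and 4.07 in knockouts. Its smooth muscle beta subunit, Kcnmb1, read 6.13, 6.57 and 6.94 against 5.17, 5.17 and 4.86. Both partners of this channel were thus lower, by 6.78-fold and 2.79-fold. Of the 5 probe sets for Kcnma1, the other 4 read 3.39 or less in every array, so the value rests on 1 probe set.

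The accessory subunits of voltage-gated channels Kcnab1 and Kcne4 read 9.88, 9.93 and 10.30 and 9.69, 9.68 and 9.84 in controls. In knockouts they read 7.16, 7.75 and 7.14 and 7.74, 8.0 and 7.55. These are falls of 6.45-fold and 3.93-fold with separate groups. The ATP-sensitive channel of pericytes was not among the changes: its pore gene Kcnj8 differed by −0.03 and its sulfonylurea subunit Abcc9 by −0.10. The pore gene Kcna5 read 12.24, 12.31 and 11.70 against 11.10, 10.49 and 11.54, a difference of −1.04 that did not pass (adjusted p = 0.157). The background channel Kcnk3 fell by 1.07 at an adjusted p of 0.0499 and lost its call in 5 of 6 leave-one-out runs, keeping it only without knockout mouse 3 (0.0783 to 0.136 in the others). Kcnt2, a sodium-activated channel, was the riser at 0.83, and its call was lost without any 1 of the 6 arrays (0.0523 to 0.0825). At the 75th percentile filter 2 potassium channel genes were called.

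Among calcium, TRP and chloride channels 5 of 15 fell, against 3.17% of all tested genes, and none rose, with a median difference of −0.36. The T-type calcium channel Cacna1h read 7.52, 7.93 and 7.53 in controls and 3.17, 3.11 and 2.49 in knockouts, at least 20.9-fold lower. Its gene lies on chromosome 17, as does Notch3, and a second probe set was at background throughout. Cacna1h was below the median of all values in every knockout array and entered the test through the control arrays of both regions. Its place in the count of 5 thus depends on the genotype in which it was high. Ano1, the calcium-activated chloride channel that depolarises smooth muscle, read 12.36, 12.36 and 12.24 against 11.24, 11.08 and 11.06 (2.29-fold, adjusted p = 4.86e-06). Trpv2 fell by 0.80. The pore of the L-type calcium channel, Cacna1c, read 7.98, 8.17 and 7.85 against 7.05, 7.23 and 7.09 (1.83-fold), and this call was lost without control mouse 1 or 2 or knockout mouse 1 or 3 (adjusted p 0.0513 to 0.0700). Its subunit gene Cacnb2 lay near background and kept its call only when control mouse 3 was left out (0.0725 to 0.118 in the other runs). The list therefore had 3 calls in the runs without control mouse 1 or 2 or knockout mouse 1 or 3. Cacnb2 read 3.53, 3.39 and 3.13 in controls and lay below the median of all values in knockouts, at least 1.06-fold lower. It is counted among the 5 but lends that count no support.

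Vasoactive receptors changed in part: 5 of 18 tested genes fell, against 3.17% of all tested genes, none rose, and the median difference was −0.12. Gpr20, an orphan receptor, read 9.88, 10.07 and 10.28 in controls and 7.05, 7.76 and 6.76 in knockouts (7.38-fold). The serotonin receptor Htr1b read 8.43, 8.63 and 8.08 against 5.70, 5.60 and 6.24 (5.78-fold). S1pr3, a receptor for sphingosine 1-phosphate, read 12.27, 12.49 and 12.48 against 11.37, 11.48 and 11.29 (2.05-fold). In these 3 genes the lowest control lay well above the highest knockout. The neuropeptide Y receptor Npy1r (−0.84) and the UDP-glucose receptor P2ry14 (−0.69) also passed with all arrays. Npy1r was lost without control mouse 2 or 3 or knockout mouse 2 or 3 (adjusted p 0.0522 to 0.0691), and P2ry14 without control mouse 1 or 2 or knockout mouse 1 or 3 (0.0676 to 0.0833), which left 3 called receptors without control mouse 2 and without knockout mouse 3. The endothelial S1pr1 differed by 0.02 and Calcrl, the receptor component for calcitonin gene-related peptide, by −0.07.

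On the relaxing side, 4 of 13 tested genes of the nitric oxide and cyclic GMP pathway fell, against 3.17% of all tested genes. None rose, and the median was −0.33. Gucy1a1, the alpha subunit of the nitric oxide receptor guanylate cyclase, read 11.99, 12.23 and 12.22 in controls and 11.23, 11.14 and 11.08 in knockouts (2.00-fold, adjusted p = 0.000159). Pde5a, which breaks down cyclic GMP, fell by 0.75, and Pde1a, a calmodulin-dependent phosphodiesterase, by 0.87. Mrvi1, counted with the calcium store above, is the fourth. The beta subunit Gucy1b1 (−0.77, adjusted p = 0.0552) and the cyclic GMP kinase Prkg1 (−0.45, adjusted p = 0.0943) had separate groups but did not pass. Nos3, the endothelial enzyme that makes nitric oxide, differed by 0.13.

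Pericyte markers, genes used to mark the mural cells of capillaries, were lower in 13 of 29 tested genes, against 3.17% of all tested genes. None was higher, and the median was −0.50. Some members also stand on other lists here, and in mixed fragments their falls cannot be assigned to pericytes rather than smooth muscle cells. Aoc3, a surface amine oxidase, read 11.24, 11.17 and 11.34 in controls and 9.89, 9.60 and 9.80 in knockouts (2.80-fold). The integrin subunit Itga7 read 9.77, 9.96 and 9.77 against 8.42, 8.37 and 8.48 (2.66-fold). Enpep, the aminopeptidase that cleaves angiotensin II, read 12.70, 12.74 and 12.72 against 11.52, 11.80 and 11.45 (2.19-fold). The falls of these 3 were several times the spread within a genotype. Ndufa4l2, Art3, Atp13a5, Higd1b, Tbx18 and Rgs4 fell by 1.29, 1.06, 0.88, 0.80, 0.72 and 0.58.

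Other widely used pericyte markers did not pass on the probe set that stands for the gene. The PDGF receptor Pdgfrb read 14.19, 14.39 and 14.29 in controls and 14.08, 14.04 and 13.96 in knockouts, a difference of −0.26 with separate groups that did not pass (adjusted p = 0.0828). Vtn differed by −0.08 with overlapping groups. The probe sets of Rgs5, a regulator of G-protein signalling, disagreed. The brightest, 1417466_at, read 15.44, 15.57 and 15.53 in controls and 15.47, 15.40 and 15.39 in knockouts, a difference of −0.09. Its other 3 probe sets, 1420940_x_at, 1420941_at and 1420942_s_at, fell by 0.59, 0.58 and 0.67 with separate groups (adjusted p over all probe sets 0.00507, 0.00167 and 0.0173), so Rgs5 is counted as not called but was lower on 3 of its 4 probe sets. The calls of 4 members were lost in several leave-one-out runs: Cspg4 (−0.66; without control mouse 2 or 3 or knockout mouse 2 or 3, adjusted p 0.0713 to 0.139), Ifitm1 (−1.29; in all runs but that without knockout mouse 2, 0.0767 to 0.167), Foxc1 (−0.50; in all runs but that without knockout mouse 1, 0.104 to 0.163) and P2ry14. With only the 6 cerebellar arrays in the fit, 8 pericyte markers passed.

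Of 26 other tested receptors, ligands and processing genes of the Notch pathway, 1 rose and none fell (3.85%, against 4.22% of all genes tested), and the median difference was 0.0032. That share is near the background and says nothing particular about the pathway. The riser was Notch4, the endothelial receptor, with 10.98, 11.23 and 10.98 in controls and 11.58, 11.47 and 11.65 in knockouts (1.42-fold, adjusted p = 0.00774). Notch1 differed by −0.05, Notch2 by −0.18 and Rbpj by −0.12. The ligand Jag1 read 11.04, 11.54 and 11.30 against 10.77, 10.77 and 10.90, a difference of −0.48 that did not pass (adjusted p = 0.116).

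Among genes known or reported as Notch targets, 5 of 16 fell, against 3.17% of all tested genes, and none rose (median −0.23). Hey2, a transcriptional repressor induced by Notch in arteries, read 10.90, 10.76 and 11.02 in controls and 9.69, 9.80 and 9.54 in knockouts (2.32-fold, adjusted p = 0.000160). Nrarp, a feedback inhibitor of Notch signalling, read 11.41, 11.33 and 11.66 against 10.42, 9.76 and 10.15 (2.57-fold). Heyl, the Hey gene most tied to mural cells, read 8.89, 9.27 and 9.65 against 8.61, 8.55 and 8.39 (1.68-fold), and this call was lost in every run but that without control mouse 1 (adjusted p 0.0577 to 0.120). Hey1 differed by 0.13 and Hes1 by −0.40 (adjusted p = 0.333), so these Hey and Hes genes were not uniform. Grip2 and Nrip2 fell the most, by 2.79 and 2.44, but both are on the list because they stood out in earlier results on these arrays, and they lend it no independent support.

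Of 29 tested transcription factors of mural cells 8 fell, against 3.17% of all tested genes, and none rose (median −0.25). Myocardin, Myocd, the coactivator of smooth muscle genes, read 7.99, 8.18 and 7.79 in controls and 5.90, 6.16 and 6.25 in knockouts (3.69-fold, adjusted p = 0.000914). Tbx2 read 9.18, 9.42 and 9.36 against 7.82, 7.78 and 7.14 (3.35-fold), and Foxs1 read 7.34, 7.16 and 7.97 against 5.70, 5.19 and 5.64 (3.96-fold). These 3 groups were each separated by more than 1 log2 unit. Foxd1 fell by 0.78 and Tbx18 by 0.72, and Foxc1 and Heyl were described above. Serum response factor, Srf, read 11.04, 11.10 and 11.04 against 10.84, 10.87 and 10.74, a small difference of −0.25 with separate groups that did not pass (adjusted p = 0.0659). Ebf2 was near background in the controls (4.02, 3.59 and 3.52) and below the median of all values in the knockouts, a fall of at least 1.36-fold. Ebf2 exceeded that median in the cerebellar controls alone and entered the test through the group in which it was high. It is counted among the 8 but lends that count no support.

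Secreted signals of the vessel wall moved in both directions. Of 41 tested PDGF, VEGF, angiopoietin and TGF-beta family genes, 6 fell and 2 rose, against 3.17% and 1.06% of all tested genes. The list median was 0.02. Placental growth factor, Pgf, read 8.54, 8.74 and 8.94 in controls and 7.49, 7.48 and 7.30 in knockouts (2.49-fold, adjusted p = 0.000674). Tgfb3 read 9.62, 9.91 and 10.35 against 8.90, 8.87 and 8.60 (2.25-fold). Only these 2 kept their calls in all leave-one-out runs. Angpt1, the pericyte-derived ligand of the endothelial receptor Tek, fell by 0.69, Pdgfa by 0.59, Bmp4 by 0.70 and Bmpr1a by 0.38. The risers were Pdgfb, the endothelial signal that recruits pericytes (11.18, 11.13 and 11.17 against 11.49, 11.62 and 11.52; 1.30-fold), and Smad6, an inhibitor of BMP signalling (0.94). In the runs that lost them, adjusted p was 0.0649 to 0.0808 for Angpt1, 0.0581 to 0.0835 for Pdgfa, 0.0721 to 0.105 for Bmp4, 0.0947 to 0.160 for Bmpr1a, 0.0617 to 0.0854 for Pdgfb and 0.0756 to 0.116 for Smad6. Bmp4 was lost in every run but that without control mouse 1, and Pdgfb in every run but that without knockout mouse 1. Angpt1 was lost without control mouse 1 or 2 or knockout mouse 2 or 3. Pdgfa and Smad6 were lost without control mouse 1 or 2 or knockout mouse 1 or 3, and Bmpr1a without control mouse 2 or 3 or knockout mouse 2 or 3.

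Of 24 tested fibroblast and fibrillar collagen genes 4 rose and 2 fell, so 6 of 24 passed, against 4.22% of all genes tested. Col6a1 and Col6a2, which encode chains of collagen VI, rose. Col6a1 read 6.52, 6.46 and 5.96 in controls and 8.24, 7.73 and 7.90 in knockouts (3.12-fold, adjusted p = 0.000324). Col6a2 read 7.29, 7.19 and 6.78 against 8.80, 8.06 and 8.41 (2.52-fold). Knockout mouse 1 was the highest of the 6 in both. The proteoglycan Ogn rose by 0.66 and Col3a1 by 0.82, the latter lost without control mouse 2 or 3 or knockout mouse 3 (adjusted p 0.0558 to 0.0675). Tbx15 fell 2.64-fold. The fall of Dpt is within background, at least 1.30-fold. Dpt exceeded the median of all values in the cerebellar controls alone and entered the test through the group in which it was high. It is counted among the 2 that fell but lends that count no support. Fibroblast markers gave no common direction, with a list median of 0.04.

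Basement membrane genes had 1 call in 22 (4.55%, against 4.22% of all genes tested), a share near the background. It was the riser Lama1, at 1.15, which kept its call only without knockout mouse 2 (adjusted p 0.0554 to 0.142 otherwise). Elastic fibre genes had no call in 16 by limma, and 2 had an unadjusted p under 0.05. Of 12 integrin subunits, Itga7 alone passed (8.33%, against 4.22% of all genes tested). Among 12 complement genes the protease gene C1s1 read 9.76, 9.76 and 9.84 in controls and 6.75, 6.53 and 6.18 in knockouts, a 9.88-fold fall, while Cd59a, which shields cells from complement, differed by 0.35 with a call that was lost when any 1 array was left out (0.0516 to 0.159).

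Of 35 tested genes of endothelial identity 2 rose and 1 fell (8.57%, against 4.22% of all genes tested), with a median of 0.11. Cdh5, the junctional cadherin, read 11.74, 11.54 and 11.65 in controls and 11.93, 11.65 and 12.02 in knockouts, and Pecam1 differed by 0.05. Ets1, a transcription factor shared by several vessel cell types, lay between 14 and 14.06 in the controls and read 13.20, 13.01 and 12.83 in knockouts (2.03-fold lower, adjusted p = 0.00166). Probe set 1426725_s_at gave a like fall of 0.93, but the dimmer 1422027_a_at fell by 3.70. The fourth probe set, 1422028_a_at, read 9.55, 9.37 and 9.48 in controls and 5.63, 5.70 and 5.66 in knockouts (adjusted p over all probe sets 3.18e-06), so the size of the fall of Ets1 depends on the probe set. The SOX factors Sox18 and Sox17 rose by 0.47 and 0.30, and Sox17 kept its call only without control mouse 1 (0.0568 to 0.0839 otherwise).

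Blood-brain barrier genes were at 1 of 35 called (2.86%, against 4.22% of all genes tested). Tfrc, the transferrin receptor, read 12.82, 12.43 and 12.40 against 13.28, 13.21 and 12.98 and was lost without control mouse 2 or 3 or knockout mouse 1 or 2 (adjusted p 0.0829 to 0.104). Its probe set 1422966_a_at differed by −0.25 and did not pass. The tight junction gene Cldn5 differed by 0.04 and the glucose transporter Slc2a1 by 0.11, both with overlapping groups. The plot of list members shows these endothelial lists centred near 0 and most mural lists displaced to the left.

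**Figure D3:**
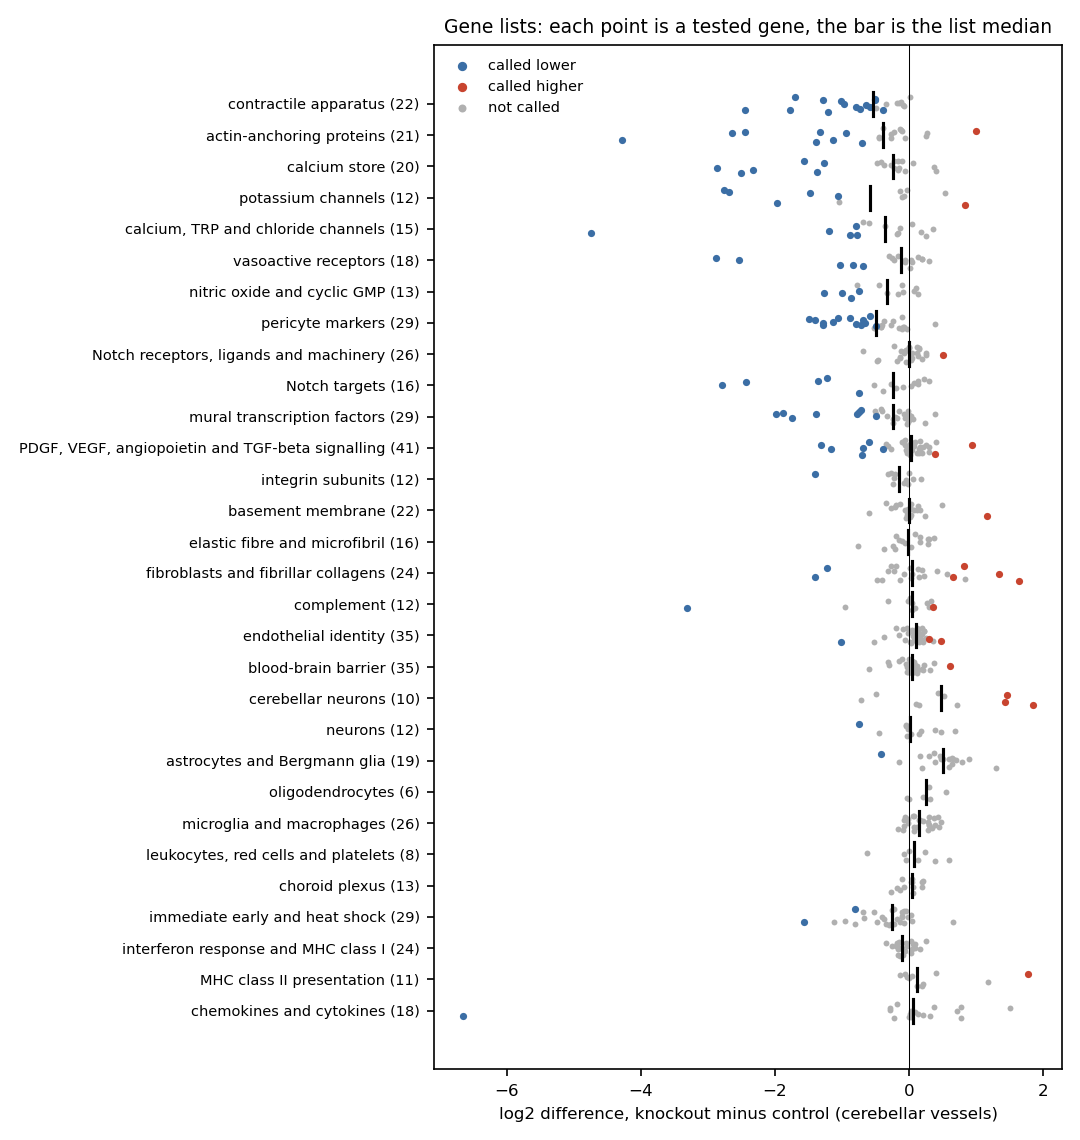
Each row is a gene list with its number of tested genes; each point is a gene at its log2 difference between knockout and control cerebellar vessels, coloured where it passed the test, and the black bar is the list median. Medians run from −0.59 for potassium channels to 0.51 for astrocyte markers, and calls in the mural lists are nearly all on the lower side.

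Markers of other brain cells were present in all arrays. Of 19 listed markers of cerebellar neurons 10 were tested, of which 3 rose, against 1.06% of all tested genes, and none fell, with a median of 0.47. Gabra6, a GABA receptor subunit of granule cells, read 4.88, 5.38 and 4.93 in controls and 6.62, 6.49 and 6.38 in knockouts (2.70-fold, adjusted p = 5.29e-05). Pvalb, a calcium-binding protein of Purkinje cells and interneurons, read 3.22, 2.62 and 3.43 against 4.69, 4.62 and 5.53, at least 3.07-fold higher. Outside the cerebellar knockout arrays, Pvalb exceeded 3.27 only in the cerebellar array of control mouse 3. It thus passed the filter through the group in which it was high, and lends the count of 3 no support. Calb1, another Purkinje cell protein, read 3.64, 3.92 and 3.27 against 4.83, 4.57 and 5.79, and kept its call only without knockout mouse 2 (adjusted p 0.0557 to 0.104 otherwise). Without knockout mouse 2, 5 markers of this list passed. All 3 are dim, and at the 75th percentile filter no gene of the list was called.

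The Purkinje cell genes Pcp4 and Car8 differed by 0.15 and 0.42 and did not pass. On the list's summed level (log2 of the sum of its genes on a linear scale) controls spanned 13.5 to 13.7 and knockouts 13.2 to 13.5. Most of that sum was Zic1, which is also on the list of mural transcription factors, so the sum does not describe the other markers. Zic1, which did not pass, was lower in each knockout mouse (13.36, 13.37 and 13.24 against 12.72, 13.13 and 12.64). The list of general neurons had 1 called gene in 12 (8.33%, against 4.22% of all genes tested), Map2, which was lower (−0.74). The list median was 0.01. Map2 kept its call only without control mouse 3 (adjusted p 0.0672 to 0.139 otherwise). Summed over this list, controls spanned 10.8 to 11.1 and knockouts 10.7 to 10.9.

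Of 19 tested markers of astrocytes and Bergmann glia, 12 had all knockout values above all control values, against 10.4% of all tested genes. None of the 12 passed the test, and the list median was 0.51. The water channel Aqp4 read 11.05, 10.57 and 10.56 in controls and 11.33, 11.26 and 11.38 in knockouts. Aldoc read 12.40, 12.07 and 12.23 against 12.81, 12.83 and 13.02, and Gdf10 5.80, 4.41 and 4.96 against 6.26, 6.22 and 6.56 (1.29, adjusted p = 0.0660). The only called member (5.26%, against 4.22% of all genes tested), Atp1b2, fell by 0.42. Its call was lost in all runs but that without control mouse 3 (0.0849 to 0.138). Summed over the list, controls spanned 15.86 to 16.04 and knockouts 15.98 to 16.24, which overlap.

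No gene passed among 6 oligodendrocyte, 26 microglia and macrophage, 8 blood cell and 13 choroid plexus markers in limma, with 1, 1, 0 and 0 genes at an unadjusted p under 0.05. Summed levels of oligodendrocyte markers spanned 14.54 to 14.60 across controls and 14.67 to 14.87 across knockouts. For microglia the spans were 16.86 to 17.12 and 17.09 to 17.18, and for choroid plexus 16.74 to 16.97 and 16.82 to 17.03. For comparison, pericyte markers summed to 17.39 to 17.50 across controls and 17.07 to 17.19 across knockouts. The part of these other cells in the mural differences was not tested.

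**Figure D4:**
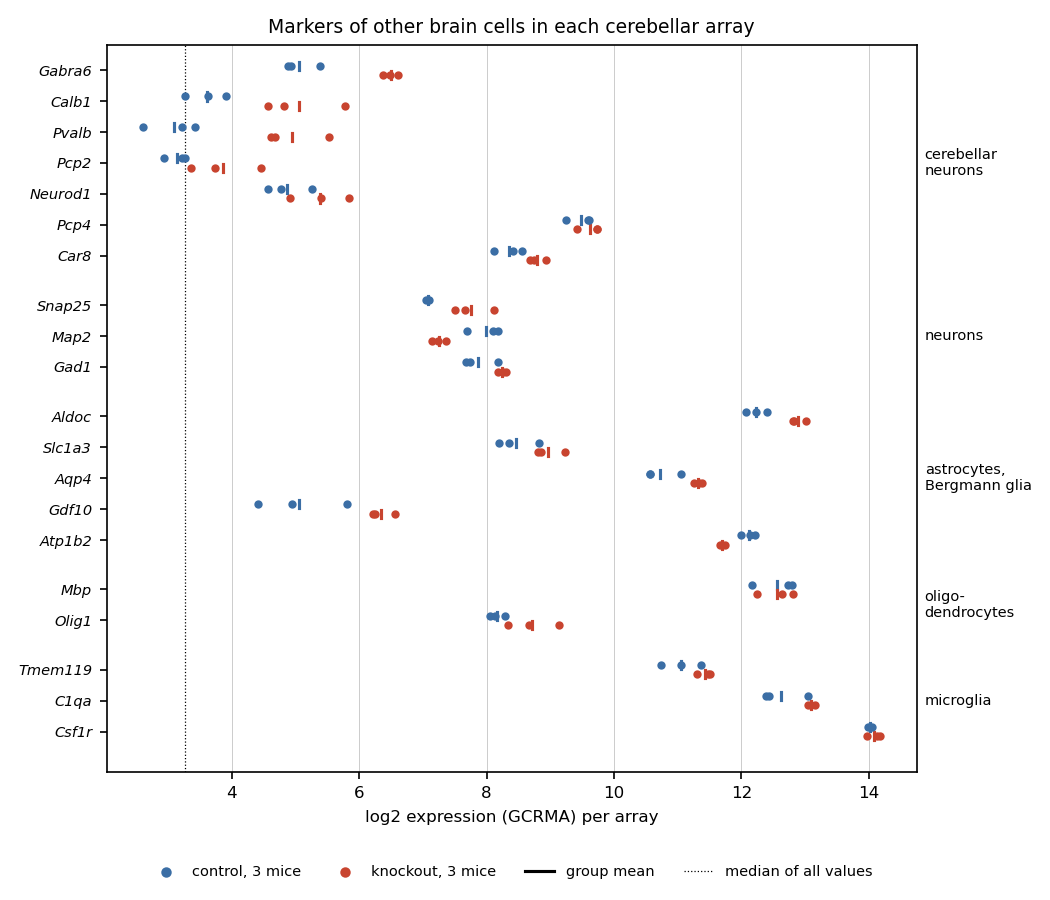
Each row is a marker of another brain cell type; the horizontal axis is log2 expression on each cerebellar array, with 3 control mice in blue, 3 knockout mice in red, a bar at each group mean and a dotted line at the median of all values. Gabra6, Calb1 and Pvalb are higher in all knockout mice, most astrocyte markers are slightly higher, and Mbp and Csf1r overlap.

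Immediate early and heat shock genes, which respond to tissue handling as well as to signals, had 2 called of 29, both lower. That is 6.9%, against 4.22% of all genes tested. Fosb read 6.96, 5.57 and 6.95 in controls and 4.63, 5.11 and 5.03 in knockouts, and Atf3 read 10.73, 10.31 and 10.58 against 10.05, 9.50 and 9.67. Both were lost in 4 of 6 leave-one-out runs, Fosb without control mouse 1 or 3 or knockout mouse 1 or 3 (adjusted p 0.0697 to 0.0860), Atf3 without control mouse 1 or 3 or knockout mouse 2 or 3 (0.0976 to 0.134). In 15 of the 29 the knockout values were all below the control values, against 11.7% of all tested genes. The list median was −0.26, and the part of these genes in other results was not tested. No gene of 24 in the interferon and MHC class I list passed in limma (3 at an unadjusted p under 0.05).

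Among the largest single changes were genes outside the mural lists. Ang, which encodes the secreted ribonuclease angiogenin, read 2.54, 3.02 and 2.56 in controls and 10.99, 11.12 and 11.04 in knockouts, at least 220-fold higher. Its other probe sets, 1438936_s_at and 1450717_at, were higher by 9.93 and 3.23. Rpgrip1, known from the photoreceptor cilium, read 5.91, 5.84 and 5.44 against 10.83, 10.66 and 10.86 (33.2-fold higher). For Rpgrip1 the 3 other probe sets were at background in both genotypes. In both genes the level of every knockout array was far above every control array.

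In the other direction, the chemokine receptor Ccr6 read 8.99, 8.90 and 9.07 in controls and 2.33, 2.34 and 2.34 in knockouts, at least 52.6-fold lower. The metalloprotease-related gene Adamdec1 read 8.78, 6.76 and 6.91 against 1.74, 1.76 and 1.75, at least 18.5-fold lower. The epoxide hydrolase Ephx3 read 8.61, 8.49 and 8.72 against 4.11, 3.91 and 3.90 (24.8-fold lower). In each, the 3 knockout arrays were nearly equal. For Ccr6 and Adamdec1 they lay below 3.27, near the background, where spread is artificially small. Ephx3 read 3.89 to 3.97 in the cerebral knockouts as well, so this level may be its background. Ang, Rpgrip1, Adamdec1, Synpo2l, Kcnma1 and Lrmda (2.44 higher) lie on chromosome 14, where 8 of 403 tested genes changed more than 4-fold (1.99%, against 0.393% of all genes tested). Ccr6, Ephx3, Cacna1h, Slc22a2 (−2.71) and Eme2 lie on chromosome 17, with 7 of 549 (1.28%). Eme2 was higher by 3.49 on 1 probe set and by 0.13 on another, 1429034_at.

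Of the remaining genes among the 15 largest falls, the cytochrome Cyp2e1 fell by 3.53 and Susd5 by 3.45. Lrrc10b fell by 2.83 with control values of 4.16, 4.90 and 7.01, and its call was lost without any 1 of the knockout mice (adjusted p 0.0606 to 0.0757). The remaining risers off chromosomes 14 and 17 included Fez1 (2.37), Pam, which amidates peptide hormones (2.37), Ap1s3 (2.32), Hddc3 (2.31) and the haem-binding protein gene Hebp1 (2.09). Pam read 8.13 in knockout mouse 1 and 9.50 and 9.65 in the others, against 6.51 to 6.83 in controls. Dpep1, a membrane dipeptidase, differed by 2.74, but its controls ranged from 3.14 to 5.67, and it kept its call only without control mouse 2 (0.0692 to 0.127 otherwise).

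Calls were denser around Notch3. Within 20 Mb of it on chromosome 17, 34 of 381 tested genes passed (8.92%), 20 of them higher and 14 lower. On the same chromosome beyond 20 Mb the share was 5.95% of 168 genes, and on all other chromosomes 4.04% of 11131. In a window of 10 Mb it was 8.46% of 272. Rises outnumbered falls in the window, while on the other chromosomes 102 genes rose and 348 fell. The zinc finger genes Zfp994 (6.51, 6.71 and 6.38 against 8.57, 8.54 and 8.48) and Zfp40 (1.68 higher, but 0.02 on its dim probe set 1421251_at) and the antigen-processing gene H2-DMa (5.22, 5.21 and 5.71 against 7.03, 6.90 and 7.52) were among the risers.

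Probe sets of the same gene could oppose each other there. For Zfp945 probe set 1437127_at read 7.18, 7.92 and 7.10 in controls and 5.37, 4.90 and 5.17 in knockouts, while 1437128_a_at read 1.92, 3.47 and 2.51 against 7.93, 8.31 and 7.56. Genes with called probe sets in both directions were 2 of 142 with several probe sets within 20 Mb of Notch3 (1.41%) and 7 of 4888 elsewhere (0.143%). Tmem242, 1 of the 7, lies on chromosome 17 beyond that window. Zfp945 and Tmem242 were singled out after their values were seen. Allelic sequence around Notch3 was not measured.

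**Figure D5:**
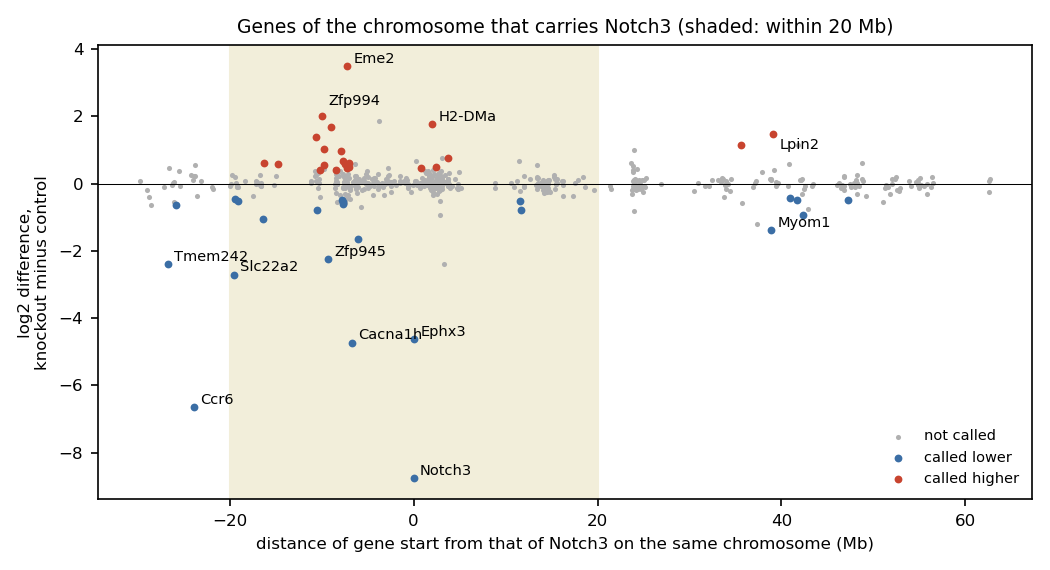
Each point is a tested gene of the chromosome that carries Notch3, placed by the distance of its start from that of Notch3 in Mb, with the log2 difference between knockout and control cerebellar vessels on the vertical axis. The shaded window of 20 Mb to each side holds 34 called genes of 381, with falls at Notch3, Ephx3, Cacna1h and Slc22a2 and rises at Eme2 and Zfp994.

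The effect of the knockout was compared with that in the cerebral vessels of the same mice by an interaction term. The 12 arrays entered that fit as independent, although each mouse gave both. It passed in 5 of 11716 genes (0.0427%), and 546 had an unadjusted p under 0.05. With the mouse as a random block 7 genes passed. For Gabra6 the effect was 1.43 in cerebellar and 0.03 in cerebral vessels (limma adjusted p of the difference 0.0172). Its cerebral values were nearly constant, at 3.79 to 3.88 in both genotypes, so the difference mainly restates the cerebellar rise. Dmp1 did not pass in cerebellar vessels, where it read 8.08, 8.07 and 8.25 in controls and 7.85, 8.12 and 7.99 in knockouts, but it fell by 2.48 in cerebral vessels. The other 3, Dpt, Ebf2 and Zfpm2, exceeded 3.27 in the cerebellar controls alone and so entered the test through the group in which they were high. Their small spread lies near the background of the array, and they are not read as differences between the regions. This count was 2 without control mouse 2 and 1 without any 1 of the knockout mice. The list medians were −0.55 in cerebellar and −0.53 in cerebral vessels for contractile genes, −0.50 and −0.65 for pericyte markers and −0.59 and −0.43 for potassium channels; the difference between medians was not tested. Single members could stand apart, as Xirp1 did with −2.64 and −0.86 and Synpo2l with −4.28 and −3.08, and neither difference passed the interaction test (adjusted p 0.985 and 0.999).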

How the data were processed

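Gene expression was measured on Affymetrix Mouse Genome 430 2.0 arrays. The authors deposited log2 values normalised with GCRMA 2.32.0, per the submitters' processing notes; the values were used as deposited. Of 45101 probe sets, 34958 name 1 gene, 932 several and 9211 none in the platform annotation. Genes are represented by the probe set with the highest mean over all 12 arrays, kept where at least 3 arrays exceeded the median of all values (3.27), which left 11716 genes. GCRMA draws dim probe sets toward a common background, so small differences near it have artificially small spread.

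Differences were tested with limma 3.58.1 in R 4.3.3 (lmFit and eBayes, two-sided). All 12 arrays entered as 4 group means with 8 residual degrees of freedom, and p-values were adjusted by Benjamini-Hochberg over all genes. The difference of effects between regions was an interaction contrast. The procedure was tested on simulated data first.

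Named genes are Notch3, the 15 largest called rises and falls with separate groups, called members of the gene lists, uncalled members with their values, and genes whose effect differed between regions. The lists and members were chosen with earlier results of these data known. Lists are described by counts and medians, without a set test. Replicate numbers were checked for pairing across genotypes: deviations of same-numbered cerebellar arrays correlated at 0.259, 0.0313 and −0.166, so they were not treated as pairs. The 2 regions of a mouse did deviate together, at 0.371 to 0.547 in controls and 0.573 to 0.705 in knockouts, and a random mouse block was an alternative. Alternatives covered filters, probe sets, scaling, variance model, array weights, blocks, an Xist covariate and leaving out each array. Gene neighbourhoods and promoters come from RefSeq tables of GRCm38.p6; the array files name no genome build.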

Additional observations from a re-analysis of the deposited data

Results flagged for a closer look

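The effect of the knockout differed between cerebellar and cerebral vessels in 5 genes by the interaction test (limma, adjusted p under 0.05). For Dmp1 the cerebellar minus cerebral difference of effects was 2.33 (SE 0.27): −0.15 in cerebellar and −2.48 in cerebral vessels. For Gabra6 it was 1.41 (SE 0.16), with a rise in the cerebellar arrays and cerebral values of 3.79 to 3.88 in both genotypes. The Gabra6 difference thus mainly restates its cerebellar rise. For Ebf2 it was −1.32, for Dpt −1.23 and for Zfpm2 −0.74. These last 3 genes read 4.02 or less in every array, and were above the median of all values in the cerebellar controls alone, the group through which they passed the filter, so their differences are not read as effects that differ between regions. Each of the 5 values rests on 3 arrays per group.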

How the results depend on the processing

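Of 167 named genes under 18 alternatives, 2 results reversed, both for Zfp945, which differed by 0.72 as the mean of its probe sets and by 5.30 with each probe set on its own, the strongest being counted. Another 224 results lost their call, 31 gained one, and 2693 kept direction and side of the threshold. The count of higher genes was 225 with array weights and 228 with the replicate block, in which 719 genes passed in all (742 with array weights); the replicate number does not pair the genotypes. The difference between regions gave 2 genes with no filter and 0 at the 75th percentile filter. That filter, which tests fewer dim genes, called 4 actin-anchoring, 3 calcium store, 2 potassium channel and 0 cerebellar neuron genes. With only the 6 cerebellar arrays, fewer degrees of freedom remain, and 9 contractile and 8 pericyte genes passed. Array weights and the replicate block each gave 8 calcium, TRP and chloride channel genes and 5 cerebellar neuron genes; the cause was not tested. Leaving out each array gave 302 to 397 genes in all, 69 to 111 higher, 233 to 288 lower, 1 to 7 between regions, 3 to 5 calcium, TRP and chloride channel genes, 3 to 4 receptors and 2 to 5 cerebellar neuron markers. No array supplies read depth; values at or below 3.27 carry no order.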

Other observations

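Outside the lists, some called genes form groups; these were chosen after their values were seen, so no test was made of any group. The olfactory receptor genes Olfr78 and Olfr558, both known in vascular smooth muscle, were lower: Olfr78 read 8.90, 8.91 and 9.10 in controls and 7.93, 7.73 and 7.32 in knockouts (adjusted p = 0.00812), and Olfr558 fell by 1.26 near background (adjusted p = 0.00920). The sodium channel beta subunits Scn2b and Scn4b fell by 1.21 and 1.85; Scn4b was lost without control mouse 2 or 3 or knockout mouse 1 or 3 (adjusted p 0.0605 to 0.0834). Of ankyrin-repeat SOCS-box genes known in muscle, Asb2 read 9.89, 10.07 and 10.40 in controls and 7.82, 7.80 and 7.75 in knockouts, and Asb5 fell by 2.64. In Wnt signalling, Wnt5b fell by 1.65, its receptors Fzd2 and Ror1 by 1.24 and 1.03, and the secreted inhibitor Sfrp2 rose by 1.0. Fzd2 was lost without control mouse 2 or 3 or knockout mouse 3 (0.0527 to 0.0634), and Sfrp2 reached 0.0580 without knockout mouse 3.

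The acute-phase gene Lcn2 did not differ by genotype (−0.62, adjusted p = 0.909), but it read 13.75 in control mouse 3 and 12.46 in knockout mouse 2 and 8.24 to 9.71 in the other 4 cerebellar arrays. These are the 2 mice in which Xist was near background.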
